A study of Mus musculus with 12 samples.

Results

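The ubiquitin-specific proteases are described here across 12 single blastomeres of mouse 2-cell embryos. They were taken as the non-control probes whose gene name starts with Usp and a digit, leaving out the Usp17 genes, which gave 50 genes, read by 107 probes, among 27962 gene names and 41174 probes of the array. Earlier results of these data were known when the members were chosen, but the rule itself used names alone. It brings in Usp6nl, which encodes a Rab GTPase-activating protein and not a protease, and Usp52, now named Pan2, which encodes a subunit of a deadenylase.

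The embryos came from naturally mated CF-1 mice and were flushed from the oviduct about 36 h post coitus, and each was split into its 2 cells. The embryos of experiment 1 are pairs D, I and L and those of experiment 2 are pairs D, G and H, with 6 untreated cells from 3 embryos in each. The labels number the cells of an embryo 1 and 2 without saying what the number stands for. Poly(A) RNA of each cell was amplified and hybridised to its own Agilent array, whose spot intensity was read in Cy5 in experiment 1 and in Cy3 in experiment 2. Experiment, dye, scan and slides coincide, and their effects on a difference between the experiments cannot be told apart.

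Ubiquitin-specific proteases are the largest family of deubiquitinases in mammals. These cysteine proteases cut ubiquitin from proteins that ligases have tagged, which can spare a protein from the proteasome, reset a receptor for recycling or remove the mark from a histone. The early embryo clears maternal proteins through the ubiquitin system while its own genome is switched on, and members of the family act in both the cell cycle and chromatin.

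The promoters shown first belong to genes whose signal differed between the experiments. For each, the 150 bases before the RefSeq start site are given, on the strand of the gene, with every GC box (GGGCGG on either strand) in capitals. GC boxes are the letters bound by Sp1-like factors. The windows lie at chr1:74505822-74505971 (minus strand) for Usp37, chr10:123197020-123197169 (minus) for Usp15, chr9:44084770-44084919 (plus) for Usp2 and chr9:108347681-108347830 (plus) for Usp4, in GRCm38.p6. Usp1 and Usp33 have no entry in the promoter table.
Usp37: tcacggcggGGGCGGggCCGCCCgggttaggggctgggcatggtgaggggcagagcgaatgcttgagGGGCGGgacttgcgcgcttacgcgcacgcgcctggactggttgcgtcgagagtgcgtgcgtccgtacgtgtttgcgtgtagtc
Usp15: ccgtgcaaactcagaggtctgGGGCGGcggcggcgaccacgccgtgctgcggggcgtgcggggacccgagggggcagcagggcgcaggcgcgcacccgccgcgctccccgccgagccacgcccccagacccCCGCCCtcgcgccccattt
Usp2: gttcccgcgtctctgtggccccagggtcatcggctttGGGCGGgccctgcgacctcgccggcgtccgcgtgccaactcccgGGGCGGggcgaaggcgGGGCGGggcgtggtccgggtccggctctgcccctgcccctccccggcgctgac
Usp4: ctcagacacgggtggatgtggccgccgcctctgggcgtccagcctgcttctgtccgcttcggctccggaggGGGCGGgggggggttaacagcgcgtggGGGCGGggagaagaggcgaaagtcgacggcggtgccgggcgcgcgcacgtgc
Both the genes that were higher (Usp37) and those that were lower in experiment 2 (Usp15, Usp2 and Usp4) carried GC boxes, 3 in Usp37 and Usp2 and 2 in Usp15 and Usp4. Among the 38 Usp promoters found in the table, 63.2% held a GC box within 250 bases before the start, against 32.9% of all 27025 promoters. The median number of CpG in that window was 23.5 for the Usp promoters and 6 for all promoters. A TATA box (TATAAA) was found in 5.26% of the Usp promoters and in 13.0% of all, and a CCAAT box (CCAAT) in 26.3% and 34.5%. A match of letters is a description of the window and not a binding site.

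Usp probes were more often measured than probes of the array at large. A probe counts as measured on an array where the scanner software calls it well above background. Of the 107 probes, 29 probes of 25 genes were measured on all 12 arrays, which is 27.1% against 14.2% of all probes. At least 6 arrays measured 58 probes of 40 genes, or 54.2% against 40.5%, and no array measured 10 probes (9.35% against 15.6%). The other 39 probes were measured on 1 to 5 arrays. Levels below are log2 of the processed signal over a 75th percentile of its array, with a floor at -4.12 that stands for any lower signal. That percentile was taken over the 5858 probes measured on all 12 arrays, not over all probes. Values at the floor have no order, and 26 of the 107 probes were at the floor in every cell. Levels of different probes are not comparable with each other. The probe with the highest mean stands for a gene that has several.

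Detection differed between arrays, for the Usp probes as for all spots. In experiment 1, 36.4 to 52.3% of the Usp spots were well above background, against 22.1 to 41.7% of all non-control spots. In experiment 2 the range was 46.7 to 86.0% of the Usp spots and 31.2 to 78.8% of all spots, and for all spots both cells of pair D were above the other 4. In the Cy3 channel of experiment 1, which held no RNA, 1 of the 107 Usp spots was called well above background on 1 array and 0 on the other 5. The defining oocyte transcripts were measured for 81.8 to 100% of their 11 genes on each array. Of 10 tested oocyte genes 1, Zar1, was called lower in experiment 2 (adjusted p = 0.00701 in limma) and 0 were called higher. Markers of oviduct epithelium and of stroma and macrophages were high in experiment 1. Their mean level per cell ran from -1.43 to 0.39 and from -0.59 to 1.02 there, and from -4.11 to -3.12 and from -4.12 to -3.47 in experiment 2. Of the oviduct markers 4 of 6 tested genes were called lower in experiment 2 and of the stroma and macrophage markers 6 of 7, against 4.15% of all tested probes. Cdh1, Epcam and Cd68 of these lists were low in both experiments and not called, and Muc1 was well above background on no array. Cumulus and granulosa markers were near the floor in both experiments (-4.12 to -3.41 and -4.10 to -3.17), with 0 of 4 tested genes called in limma. Of 6 genome activation genes 3 were called higher in experiment 2, against 3.95% of all tested probes. Zfp352, Usp17la and Zscan4c were not called, with differences of 0.64, 0.11 and -0.78. Signal in a cell cannot be divided between the blastomere and such other RNA, and the part of this RNA in the Usp results was not tested.

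Coverage is given by known role, where 40 of all 50 Usp genes were tested and 25 were measured on all arrays. By probes, the share tested ran from 2 of 5 in the recycling group to 3 of 4 among mitochondrial and endoplasmic reticulum genes. In the DNA damage group it was 11 of 19, against 58 of all 107 Usp probes. The groups are small, and a difference in coverage between them was not tested. Each gene was put in a single group, though some fit several. Usp11, which acts in DNA repair, was counted under signalling, and Usp42, which acts on p53 and H2B, under cell cycle and other. The group that acts on DNA damage and p53 or binds WDR48 had all 9 of its genes tested, and 6 of them were measured on all arrays: Usp1, Usp7, Usp10, Usp28, Usp46 and Usp47. All 3 splicing-linked genes were tested, with Usp4 and Usp15 measured on all arrays. Among the 8 proteases of histones H2A and H2B, 5 were tested and Usp3, Usp16 and Usp21 were measured on all arrays. Usp22, the H2B protease of the SAGA complex, was measured on 1 array, and Usp44 on none. In the membrane traffic group Usp2, Usp8, Usp20 and Usp33 were measured on all arrays, and Usp6nl and Usp32 were not tested. Both Usp19 and Usp30, anchored in the endoplasmic reticulum and the outer mitochondrial membrane, were measured on all arrays. Of the recycling proteases, Usp5, which takes apart free ubiquitin chains, was measured on 3 arrays, and Usp13 and the proteasome-bound Usp14 were tested but lay at or near the floor in most cells. None of Usp26, Usp29 and Usp43, best known from testis and other restricted tissues, was measured on all arrays. The 10 genes without a tested probe were Usp5, Usp6nl, Usp9y, Usp22, Usp25, Usp27x, Usp32, Usp40, Usp44 and Usp50, none measured on more than 4 arrays.

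**Figure D1:**
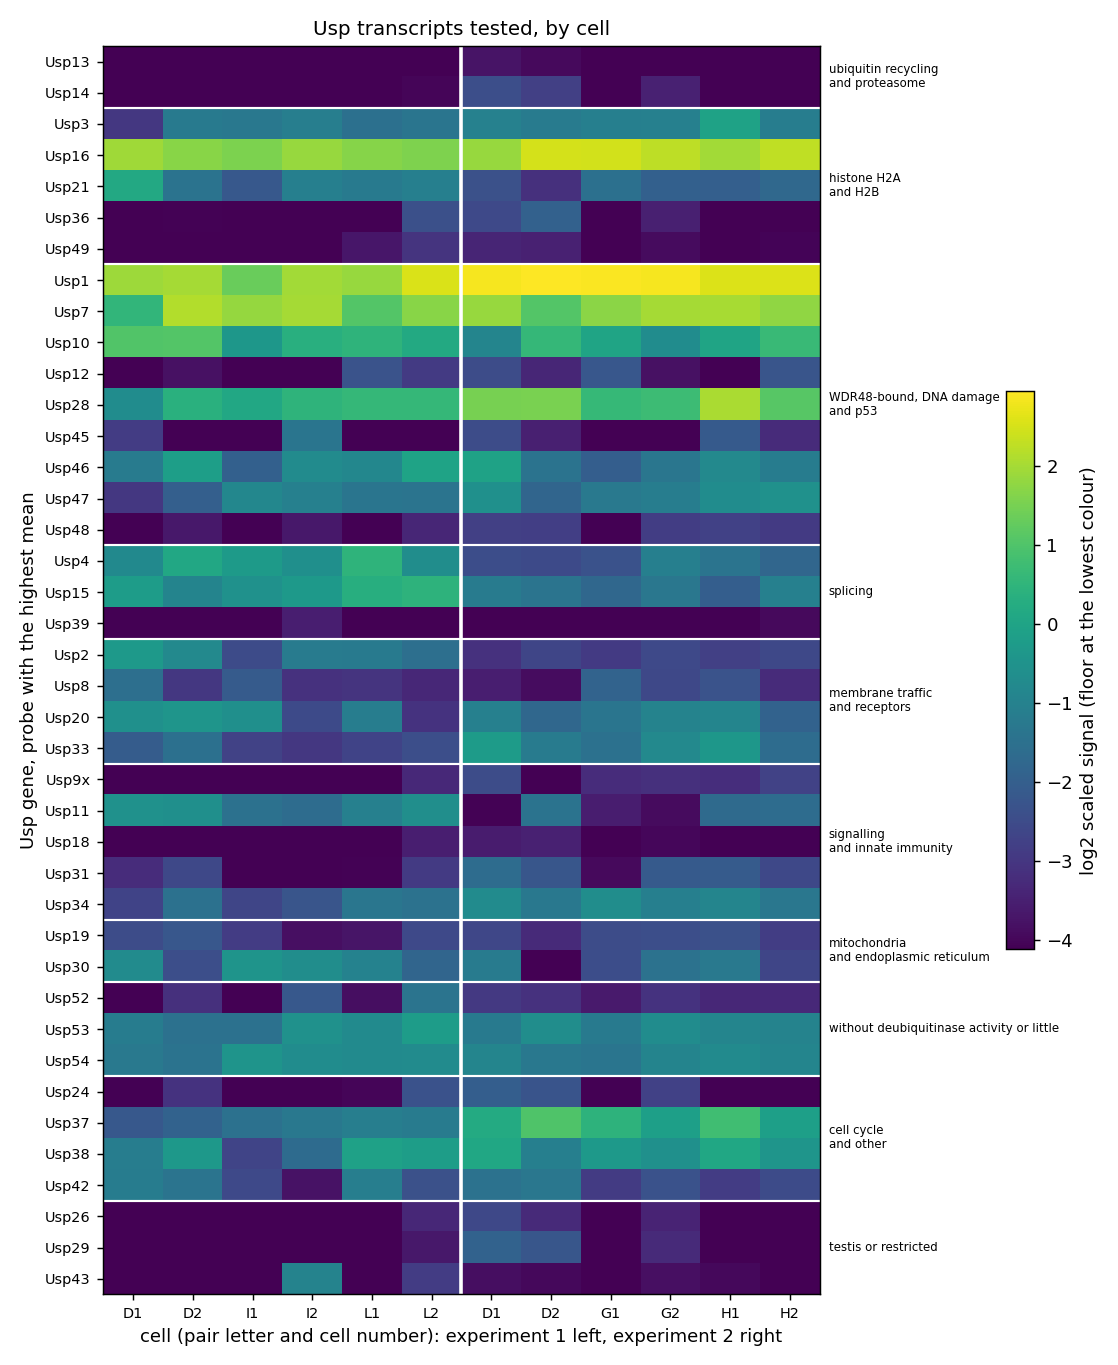
Level of the 40 tested Usp genes (rows, grouped by known role) in the 12 cells (columns, experiment 1 left and experiment 2 right), as log2 scaled signal of the probe with the highest mean. The darkest colour is the floor at -4.12, and colours compare cells within a row, not genes. Usp1 and Usp37 are brighter at the right, and Usp2, Usp4 and Usp15 at the left.

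The first comparison was experiment 2 against experiment 1. Usp37, Usp33 and Usp1 were higher in experiment 2 and Usp15, Usp2 and Usp4 were lower. These 6 of 58 tested probes passed limma's test at an adjusted p under 0.05, which is 10.3%, against 8.10% of all 16694 tested probes (3.95% higher and 4.15% lower). At an unadjusted p under 0.05 there were 12 Usp probes, 20.7% against 19.2%. The share of Usp probes called was thus near that of the array. Over the 58 probes the median difference was 0.11 log2 units, and 0.19 over all tested probes, so that the array itself was not centred between the experiments. The fit took all cells, with embryo as a random block, because the cells of an embryo are not independent. Its p values still rest on cells and on a correlation shared by all probes, not on embryos alone. With embryo means in place of cells, limma called 2 of the 58 Usp probes, 3.45% against 4.93% of all tested probes. These were the probes of Usp37 and Usp4 (adjusted p = 0.0321 and 0.0421 in limma). All 6 called probes were measured on all 12 arrays.

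**Figure D2:**
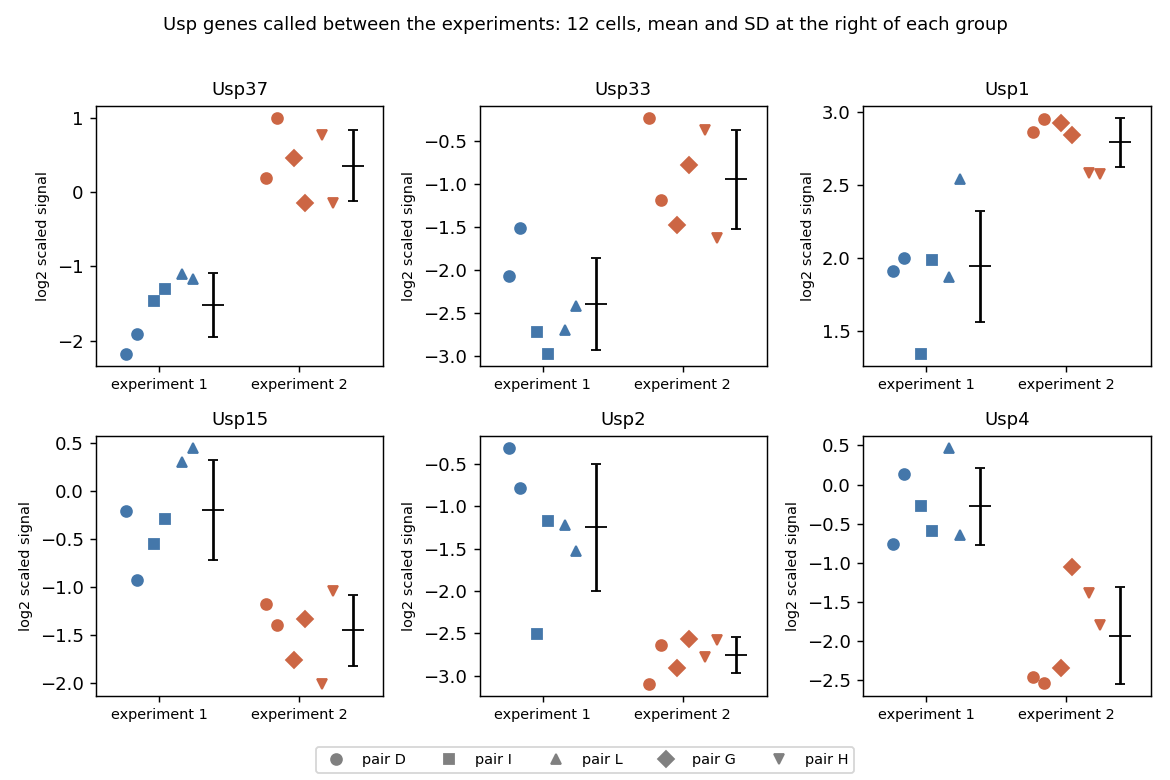
Level of the 6 called Usp genes as log2 scaled signal in each of the 12 cells, by experiment and with 1 symbol per pair. The mean and SD (n = 6 cells from 3 embryos, so not independent) stand at the right of each group. The experiments overlap for Usp33 and for none of the other 5.

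Usp37 had the smallest adjusted p of the 6. It encodes a protease that stabilises cyclin A at the entry to S phase. In experiment 1 it ran from -2.18 to -1.10 with a median of -1.38, and in experiment 2 from -0.14 to 1.01 with a median of 0.33. Every cell of experiment 2 lay above every cell of experiment 1. The difference was 1.88 ± 0.31 log2 units (SE), or 3.68-fold (adjusted p = 0.00405 in limma). Relative to the median of all tested probes it was 1.69.

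Usp1, the protease that with WDR48 cuts ubiquitin from FANCD2 and PCNA, ran from 1.34 to 2.54 in experiment 1 (median 1.95) and from 2.57 to 2.95 in experiment 2 (median 2.85). The groups did not overlap, though cell 2 of pair L of experiment 1 came close to the lowest cell of experiment 2. The difference was 0.85 ± 0.22, or 1.80-fold (adjusted p = 0.0357 in limma). Usp33, which acts on receptors and on centrosome proteins, ran from -2.98 to -1.51 (median -2.56) in experiment 1 and from -0.23 down to -1.63 (median -0.98) in experiment 2. The groups overlapped, since cell 2 of pair D of experiment 1 (-1.51) lay above cell 2 of pair H of experiment 2 (-1.63). Its difference was 1.45 ± 0.39, or 2.74-fold (adjusted p = 0.0408 in limma).

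Usp4 and Usp15, close paralogs that act on spliceosome proteins and on TGF-beta signalling, were both lower in experiment 2. Usp4 ran from -0.76 to 0.47 (median -0.43) in experiment 1 and from -2.54 to -1.06 (median -2.07) in experiment 2. Usp15 ran from -0.93 to 0.45 (median -0.25) and from -2.01 to -1.04 (median -1.37). Neither gene's groups overlapped. The differences were -1.65 ± 0.40 for Usp4, which is 3.15-fold lower, and -1.25 ± 0.31 for Usp15, which is 2.38-fold lower (adjusted p = 0.0253 and 0.0275 in limma). Sart3, which brings both to the spliceosome, was 0.96 in experiment 1 and 0.21 in experiment 2 on average and was not called (adjusted p = 0.219 in limma).

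Usp2, a protease of MDM2, cyclin D1 and receptors, ran from -2.51 to -0.31 (median -1.20) in experiment 1 and from -3.10 to -2.57 (median -2.71) in experiment 2. The highest cell of experiment 2 was just under the lowest of experiment 1, cell 1 of pair I, while the other 5 cells of experiment 1 were at -1.53 or above. The difference was -1.51 ± 0.36, or 2.84-fold lower (adjusted p = 0.0260 in limma).

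With each array scaled by the 75th percentile over all its probes, limma called 0 of the 58 Usp probes, Usp37 included (adjusted p = 0.317; 7 at an unadjusted p under 0.05), and 1.04% of all tested probes. The calls other than that of Usp37 also depended on single cells. Usp37 passed in each of the 12 fits that left out 1 cell, and its difference stayed between 1.75 and 2.00. Usp33 lost its call in 7 of the 12, without cell 1 of pairs D, I and L or cell 2 of pairs I and L of experiment 1, and without cell 2 of pair G or cell 1 of pair H of experiment 2 (adjusted p 0.0557 to 0.133 in limma). Usp1 lost it in 5, without either cell of pair D or cell 1 of pair L of experiment 1 and without either cell of pair G (0.0624 to 0.110). Usp15 lost it in 5, without cell 1 of pair D or either cell of pair L of experiment 1 and without either cell of pair G (0.0513 to 0.0924). Usp2 lost it in 4, without cell 2 of pair D or cell 1 of pair L of experiment 1 and without either cell of pair G (0.0508 to 0.0860). Usp4 lost it in 4, without cell 2 of pair D or cell 1 of pairs I and L of experiment 1 and without cell 1 of pair G (0.0504 to 0.0757). Without cell 1 of pair L of experiment 1 only Usp37 was called, 1.72% of the Usp probes against 4.77% of all tested probes. Where these cells were left out, no direction changed among the 6 genes.

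**Figure D3:**
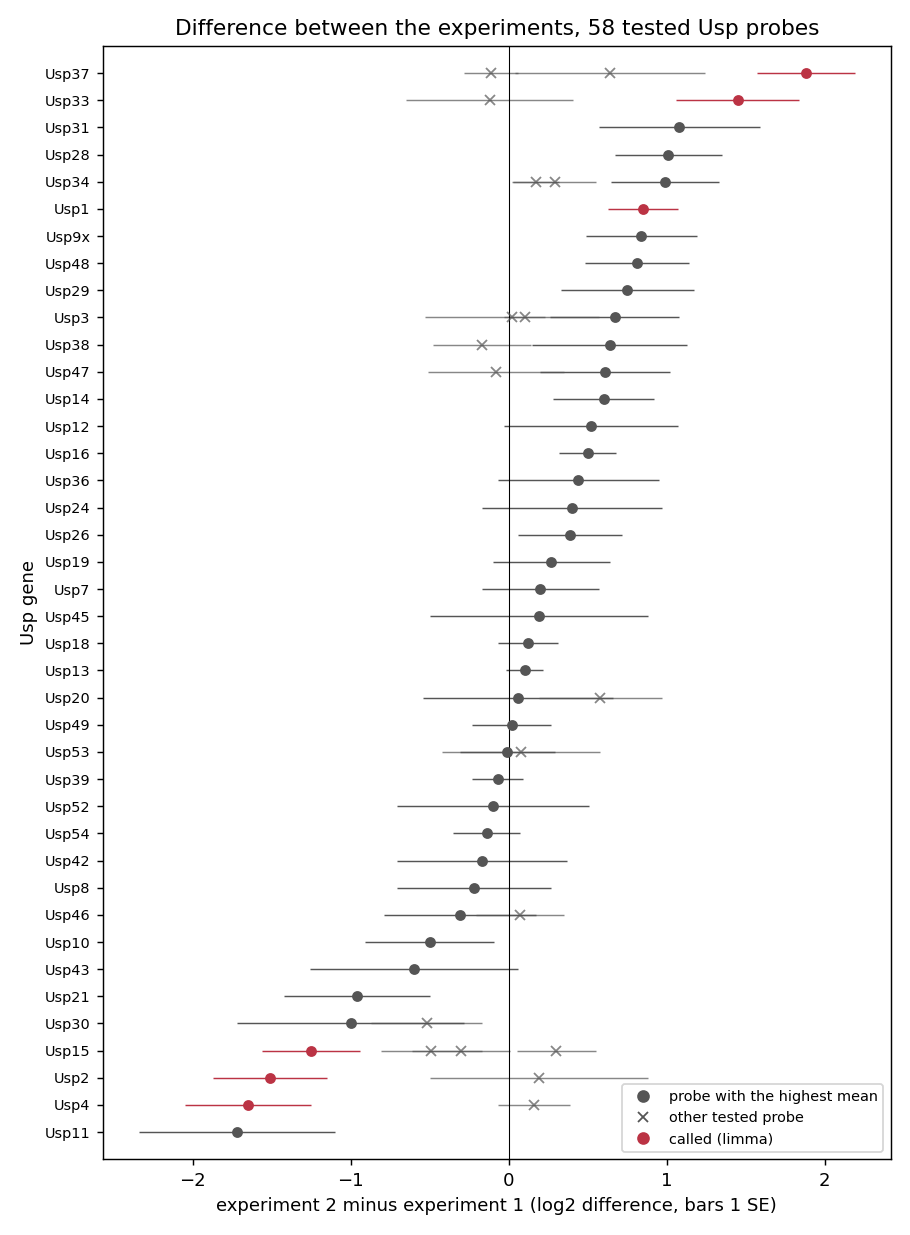
Difference between the experiments (experiment 2 minus experiment 1, log2 units, bars 1 SE) for the 58 tested Usp probes, 1 row per gene. Filled points are the probes with the highest mean, crosses the other tested probes, and red the 6 called probes, from -1.65 for Usp4 to 1.88 for Usp37.

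Other probes of the same genes did not bear the calls. Of the 6 called genes, 5 had further tested probes, all dimmer, and none of these was called. The further probes of Usp33, Usp2 and Usp4 gave -0.12, 0.19 and 0.16, of the opposite sign, at adjusted p of 0.920, 0.900 and 0.722 in limma. Usp37 had a probe at 0.64 and one at -0.11, and Usp15 had probes at -0.49 and -0.30, both measured on all arrays, and a dim one at 0.30.

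Further Usp genes differed without passing. Usp11, which acts in DNA repair, had a lower level in experiment 2 (from -4.07 to -1.42, median -2.62, against -1.63 to -0.55, median -0.84), with groups that overlapped and a difference of -1.72 ± 0.62 (adjusted p = 0.128 in limma). Usp28, a protease that stabilises MYC and binds 53BP1, ran from -0.69 to 0.60 in experiment 1 and from 0.63 to 2.04 in experiment 2. Usp34, which acts on axin in Wnt signalling, ran from -2.71 to -1.35 and from -1.31 to -0.65. Neither gene's groups overlapped, but at 1.01 ± 0.34 and 0.99 ± 0.34 both missed the threshold (adjusted p = 0.105 in limma for each). With them, 7 of 58 probes had groups that did not overlap, 12.1% against 7.66% of all tested probes, 4 of the 7 being higher in experiment 2. Usp16, the histone H2A protease needed for mitosis, was 0.50 ± 0.18 higher and was not called (adjusted p = 0.137 in limma). Usp7, the protease of MDM2 and p53, had nearly the same level in both, with medians of 1.76 and 1.82 and a difference of 0.20 ± 0.37.

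Most of the other genes measured on all arrays had overlapping ranges. Usp3, a histone H2A protease, ran from -2.97 to -1.09 (median -1.33) in experiment 1 and from -1.18 to -0.04 (median -1.05) in experiment 2, and Usp21, of the same group, from -2.18 to 0.14 (median -1.15) and from -3.13 to -1.50 (median -1.95). Usp10, which acts on p53 in the cytoplasm, ran from -0.38 to 1.07 and from -0.91 to 0.68, and Usp47, of base excision repair, from -2.98 to -0.86 and from -1.82 to -0.54. Usp53 and Usp54, which lack or nearly lack protease activity, were at -1.49 to -0.22 and -1.42 to -0.45 in experiment 1 and at -1.24 to -0.65 and -1.36 to -0.74 in experiment 2. Usp19 ran from -3.82 to -2.20 and from -3.29 to -2.36.

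Of the 40 tested genes, 15 were not measured on all arrays, and their values moved in and out of the floor. Usp43 was at -0.96 in cell 2 of pair I of experiment 1 and at -2.86 in cell 2 of pair L, with the other 4 cells of that experiment at the floor and no cell of experiment 2 above -3.84. Usp45, a DNA repair protease, reached -1.36 in the same cell 2 of pair I and was at the floor in 4 of 6 cells of experiment 1 and 2 of 6 of experiment 2. Usp36, a nucleolar protease, was highest in cell 2 of pair L of experiment 1 (-2.40) and in both cells of pair D of experiment 2 (-2.56 and -1.92). Usp48 was at the floor in 3 cells of experiment 1 and 1 cell of experiment 2, with medians of -3.89 and -2.81 (adjusted p = 0.185 in limma). Usp39, a spliceosome protein without protease activity, was at the floor in 5 of 6 cells of each experiment.

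By role, the splicing group had 2 of 7 probes called lower (4.15% of all tested probes were), 1 each of Usp4 and Usp15, whose other tested probes were not called. The membrane traffic group had 1 higher and 1 lower of 7, the DNA damage group 1 higher of 11 and the cell cycle group 1 higher of 7, where 3.95% of all tested probes were higher. The other 6 groups had 0 called in limma, with 4 probes, of Usp9x, Usp11, Usp16 and Usp34, at an unadjusted p under 0.05. Usp9x was at the floor in 5 of 6 cells of experiment 1 and 1 of 6 of experiment 2. The pairs Usp9x and Usp9y, Usp12 and Usp46, and Usp22 and Usp27x are close in sequence, so their signals are uncertain as values of a single gene.

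Genes that work beside the family were tested as well. Of 61 genes for other deubiquitinases, SUMO proteases, ubiquitin and USP partners, 50 were tested and 5 were called higher in experiment 2, where 3.95% of all tested probes were. WDR20, which activates USP12 and USP46, has the gene Wdr20, which rose from 0.35 to 1.76 on average (2.65-fold, adjusted p = 0.0269 in limma). Eny2, a subunit of the SAGA module that holds USP22, rose 2.87-fold (adjusted p = 0.00733). Wdr48, the partner of USP1, was not called, at -1.98 and -1.54. Atxn3, a Josephin protease, rose 5.55-fold, from -3.26 to -0.79 on average. Vcpip1, an OTU protease of Golgi assembly, rose 3.42-fold, from -3.82 to -2.05, and Uchl4 2.87-fold, from -3.25 to -1.72 (adjusted p 0.00469 to 0.0253 in limma for Atxn3, Vcpip1 and Uchl4). Each was measured on 11 arrays and lay near the floor of -4.12 in experiment 1, so the sizes of these folds are uncertain. Uchl4 is nearly identical to Uchl3, so its value is uncertain. Between embryos and between cell numbers limma called 0 of these 50 genes.

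The second comparison was between the embryos of an experiment. Limma's moderated F test called 0 of the 58 Usp probes, where 1.40% of all tested probes were called. At an unadjusted p under 0.05 there were 10 Usp probes, 17.2% against 29.8%. Of the probes that stand for a gene, those of Usp29, an imprinted gene, and Usp14 had the smallest p. A second, dim probe of Usp47 lay between them (adjusted p = 0.0571 in limma), at -2.38 and -2.56 in pair D of experiment 2 and -3.47 or lower in pairs G and H. Usp29 was at -1.89 and -2.24 in pair D of experiment 2 and at -3.29 in cell 2 of pair G, and the other 3 cells of that experiment were at the floor (adjusted p = 0.0568 in limma). Usp14 had -2.41 and -2.77 in pair D and -3.46 in cell 2 of pair G, with the other 3 at the floor (adjusted p = 0.0660). In experiment 1 both were at the floor in all cells but cell 2 of pair L. Pair D of experiment 2 also had the highest detection of all spots, 78.8 and 64.3%, and the part of detection in these values was not tested. In each experiment pair D was alone on its slide, and the other embryos shared another slide. A difference of pair D from those embryos therefore cannot be told apart from a difference between slides. Usp49, another protease of H2B, had an adjusted p of 0.0992 in limma, with pair D of experiment 2 at -3.43 on average, above pairs G and H at -4.02 and -4.09, and pair L at -3.36 in experiment 1, where pairs D and I were at the floor.

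Usp42, which acts on p53 and on H2B, was the only one of these measured on all arrays. Its embryo means were -1.27, -3.17 and -1.74 in pairs D, I and L of experiment 1 and -1.39, -2.61 and -2.69 in pairs D, G and H of experiment 2 (adjusted p = 0.117 in limma). Of the 12 fits that left out 1 cell, 6 still called 0 Usp probes in limma: those without either cell of pair D or pair I of experiment 1 or of pair H, with 6 to 15 at an unadjusted p under 0.05. These 6 fits called 0.00 to 0.863% of all tested probes. Leaving out cell 1 or cell 2 of pair L of experiment 1 gave 7 and 5 called Usp probes (12.1% and 8.62%, against 23.2% and 11.0% of all tested probes). Leaving out cell 1 or cell 2 of pair G gave 3 and 4 (5.17% and 6.90%, against 6.85% and 8.77%). Leaving out either cell of pair D of experiment 2 gave 1 (1.72%, against 0.659% and 1.54%). Usp29 and Usp14 were called without either cell of pair L or pair G (adjusted p 0.0209 to 0.0390 and 0.0224 to 0.0479 in limma), and Usp49 without either cell of pair L (0.0170 and 0.0450).

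The third comparison was cell 2 against cell 1 of the same embryo. Usp8, the endosomal protease that recycles receptors such as EGFR, was lower in cell 2 in 6 of 6 pairs. Its twin differences were -1.43, -1.02 and -0.28 in pairs D, I and L of experiment 1 and -0.35, -0.69 and -0.94 in pairs D, G and H of experiment 2. The mean was -0.79 ± 0.17 log2 units (SE, n = 6 pairs), with an unadjusted p of 0.00338 and an adjusted p of 0.674 in limma. Usp8 was the only 1 of 58 probes with the same direction in all pairs, 1.72% against 1.13% of all tested probes. Limma called 0 of the 58 Usp probes, and 0.00% of all probes. There were 3 Usp probes at an unadjusted p under 0.05, 5.17% against 4.41%: those of Usp8 and Usp52 and a second probe of Usp15, which was 0.54 ± 0.17 higher in cell 2, in 5 of 6 pairs (unadjusted p = 0.0186, adjusted p = 0.674 in limma).

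Usp52 averaged 0.96 ± 0.39 more in cell 2, higher in 5 of 6 pairs, and Usp20, which acts with Usp33 on receptors, -0.84 ± 0.37, lower in 4 of 6 (adjusted p = 0.674 in limma for each). A dimmer probe of Usp20 gave 0.27. The Usp52 difference lay mostly in experiment 1, at 0.98, 1.94 and 2.46 in pairs D, I and L, against -0.19, 0.53 and 0.03 in experiment 2. Cell 1 of pairs D and I of experiment 1 was at the floor. As the difference between the experiments in the cell contrast, Usp52 gave -1.67 ± 0.45, Usp42 1.28 ± 0.35 and Usp38 -1.21 ± 0.41. Usp42 was lower in cell 2 in the 3 pairs of experiment 1 (-0.25, -1.22 and -1.29) and higher in the 3 pairs of experiment 2 (0.14, 0.56 and 0.37). None of them was called (adjusted p = 0.912 in limma for Usp52 and Usp42 and 0.921 for Usp38). For this difference limma called 0 of the 58 probes, with 0.00% of all probes called and 6 Usp probes at an unadjusted p under 0.05 (10.3% against 5.27%).

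**Figure D4:**
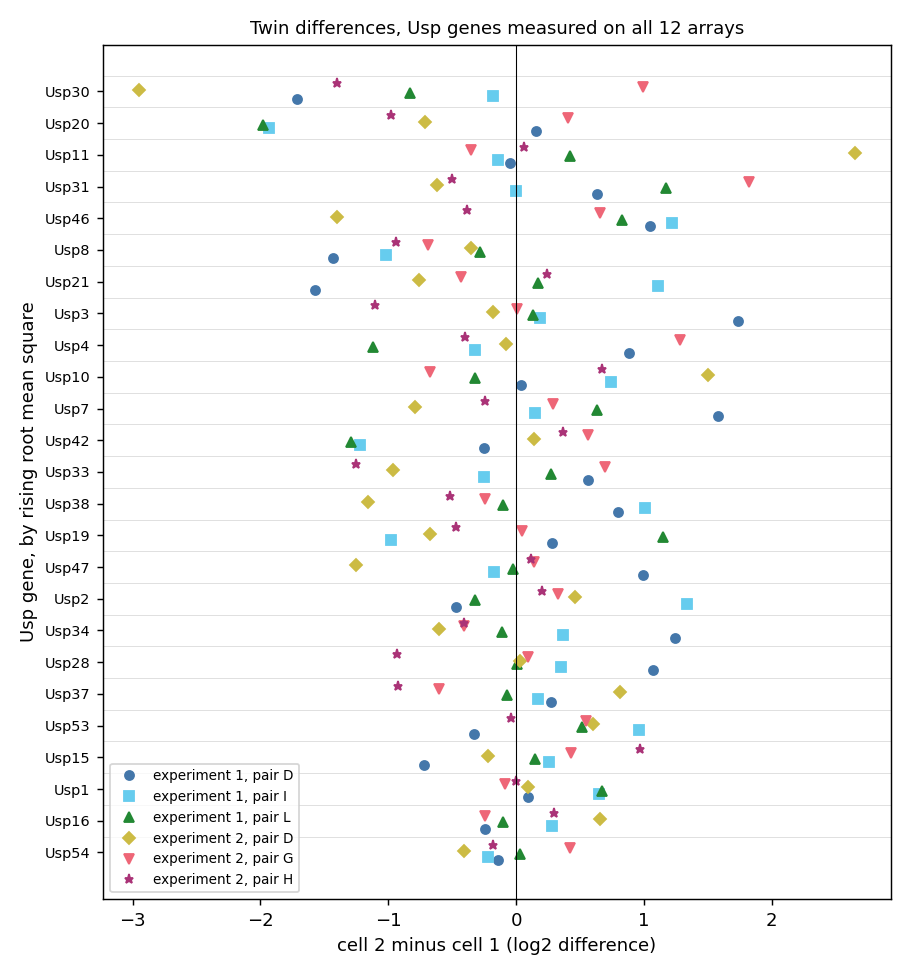
Difference between the twins of each of the 6 embryos (cell 2 minus cell 1, log2 units) for the 25 Usp genes measured on all 12 arrays, ordered by root mean square. Usp8 is the gene with all 6 points below 0, Usp30 has the widest and Usp54 the narrowest spread.

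Since the order of the cells may carry no meaning, twin differences were also taken by size. No Usp probe was over 1.5-fold apart in every pair, where 0.827% of all tested probes were. Among the 25 genes measured on all 12 arrays, Usp46, a WDR48-bound paralog of Usp12, came closest, with at least 0.38 log2 units in each pair (1.05, 1.22 and 0.83 in experiment 1 and -1.40, 0.66 and -0.38 in experiment 2). Usp8 (0.28 or more), Usp33 (0.25 or more), Usp2 (0.20 or more) and Usp30 (0.18 or more) followed.

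Among the same 25 genes the root mean square twin difference was highest for Usp30, which opposes mitophagy, at 1.60 log2 units. Its twins differed by -1.71, -0.18 and -0.83 in experiment 1 and by -2.95, 0.99 and -1.40 in experiment 2, where cell 2 of pair D was at the floor. Usp20 (1.24), Usp11 (1.11), Usp46 (0.98) and Usp31 (0.98) came next. For Usp11 pair D of experiment 2 stood apart, at 2.65, and the other 5 pairs were within 0.42 of 0. Cell 1 of that pair was at -4.07, near the floor of -4.12, and cell 2 at -1.42, so this size is uncertain. Of these genes, twins were most alike for Usp54 (0.27), Usp16 (0.35) and Usp1 (0.38). In Usp1 the twins of experiment 2 differed by 0.09 or less, and those of pairs I and L of experiment 1 by 0.65 and 0.67. The median over all 58 tested Usp probes was 0.67, against 0.66 for all tested probes. Over the Usp probes the twins lay 0.78 log2 units apart (SD 0.09, n = 6 pairs), and cells of different embryos in an experiment 0.89 (SD 0.13, n = 24 pairs), against 0.79 and 0.96 over all tested probes. The 24 pairs reuse the same 12 cells, so their SD is not a spread of independent units. Twins always shared a slide, and many cells of different embryos did not. The part of the slide in these distances was not tested.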

How the data were processed

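Agilent whole mouse genome arrays of 12 single cells were analysed. Per the file headers, the authors extracted spot intensity with Feature Extraction 9.1.3.1. The processed intensity of the channel holding RNA was used. The labels name Cy3 for all samples, but experiment 1 has its signal in Cy5. Outlier spots were left out, spots of a probe averaged, and values divided by the 75th percentile over the 5858 probes measured on all 12 arrays, floored at 0.0574 and logged (log2). A probe is at the floor also where it is well above background on an array with weaker signals. The 16694 probes measured on at least 6 arrays were tested in limma 3.58.1 (R 4.3.3), with Benjamini-Hochberg adjustment over all of them at 0.05: experiments with embryo as a random block, embryos by a moderated F test, cell number with embryo as a fixed block. Probe names were set against GRCm38.p6 genes (66 Usp probes matched by accession, 40 by symbol, 1 by synonym). Named genes followed a rule: called genes, the smallest p values per comparison, and the highest or lowest twin differences. The members and lists were chosen with earlier results of these data known. Twin difference profiles correlated from -0.08 to 0.26 over 15 pairs of embryos, 3 of them above 0.1, so cell numbers were not taken to pair samples across embryos. Alternatives changed the scaling, background, floor, filter, block and cells used. The tests were tried on simulated data. Some called genes among the other proteases and partners are not reported here.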

Additional observations from a re-analysis of the deposited data

Results flagged for a closer look

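In 40 groups of 6 cells (20 named genes in each experiment), the highest or lowest cell stood apart from the others by more than Dixon's critical value in 2. Chance flags about 1 in 20 groups where values are not tied. In both of these the other 5 cells were tied at the floor, so that any value above it is flagged and that rate does not apply. Usp29 was at -3.67 in cell 2 of pair L of experiment 1 and at the floor of -4.12 in the other 5 cells of that experiment. Usp14 was at -4.02 in the same cell and at the floor in the other 5.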

How the results depend on the processing

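Directions of the 6 called genes held under every scaling, background, floor, filter and block setting tried, and reversed only with another probe of the gene: -0.11 for Usp37, -0.12 for Usp33, 0.30 for Usp15, 0.19 for Usp2 and 0.16 for Usp4, besides 0.27 for Usp20 between cells. The cause was not tested. Of the 6 probes called between the experiments, 0 were called with the 75th percentile over all probes (limma, 7 at an unadjusted p under 0.05). There was 1 called with a floor per array, 1 with a lower common floor and 1 with the deposited values. With slide as the random block 3 were called, and with embryo means 2. In the same order, these settings called 1.04%, 2.20%, 3.57%, 4.21%, 5.81% and 4.93% of all tested probes, against 8.10% in the main fit. Over all 58 tested Usp probes, leaving out 1 cell gave 1 to 8 called (1.72 to 13.8%, against 4.77 to 9.35% of all tested probes). Counting other probes among the alternatives, Usp37 kept its call in 22 of 25 and Usp33 in 7 of 24. With cell number as a replicate block 5 were called (8.62%, against 7.14% of all tested probes). Between embryos 0 became 3 with the 75th percentile over all probes (5.17%, against 2.00% of all tested probes) and 7 with a floor per array (12.1% against 26.1%). It became 6 with no filter on dim probes (5.61% against 6.70%) and 0 to 7 without 1 cell (0.00 to 12.1% against 0.00 to 23.2%). It was 0 with the replicate block (0.00% of all tested probes), in experiment 1 alone (0.00%) and in experiment 2 alone (4.70%). It was also 0 within slides that held 2 embryos (0.0839%), an alternative chosen after seeing the data. Between cell numbers and for its difference between the experiments, limma called 0 under every alternative run, with 2 to 6 and 1 to 9 at an unadjusted p under 0.05, and leaving out 1 cell gave 0 to 0. The fit with no replicate block for embryo was run for cell number alone and called 0. For cell number and its difference between the experiments, every alternative called 0.00% of all tested probes. The median difference of all tested probes between the experiments was 0.19, 0.01 with quantile normalization and -0.08 with normexp. Signal over background limits 15 of the 40 tested genes, which were not measured on all arrays.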
